A study of Mus musculus with 25 samples.

Results

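The maturation of the mouse sinoatrial node was followed from embryonic day 14.5 (E14.5) to postnatal day 14 (P14). The node is the small strip of pacemaker muscle at the junction of the superior vena cava and the right atrium. The members were chosen by stage and tissue label alone, which gave 3 node libraries at each of those stages, 6 of the 25 libraries of the series, and all 20870 genes listed for them. The mice were on a mixed genetic background and carried an Hcn4-GFP reporter allele in every group used here, and no gene had been deleted in them. Hearts were frozen and cut, the node or the working muscle of the right atrium was outlined by eye, and the outlined tissue was collected by laser capture. Staining for the Hcn4 protein followed on the sections as a check of the outline, so Hcn4 itself is a check of the dissection and not a finding. Node libraries of postnatal day 4 (P4, 3 libraries) place each change in time, and 3 right atrial (RA) libraries at E14.5 and 3 at P14 show whether a change differed in the muscle beside the node. Which animals gave which libraries is not in the labels, so the tests measure the spread between libraries and are too lenient if some shared an animal. A captured node also holds fibroblasts, nerve, vessels and macrophages, and in such bulk RNA fewer cells of a type and less RNA per cell cannot be told apart.

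Node cells beat on their own because the inward funny current through HCN channels, T-type and L-type calcium currents and calcium released from the sarcoplasmic reticulum drive the membrane to threshold after each beat. Their identity depends on transcription factors such as Isl1, Shox2, Tbx18 and Tbx3, which keep the working atrial programme off. Between the fetal stage and the weeks after birth heart muscle as a whole leaves the cell cycle, exchanges fetal for adult sarcomere proteins, moves from glucose toward fatty acids as fuel, and comes under hormonal and autonomic control, while the node becomes embedded in connective tissue.

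Recovered reads numbered 8179985 to 17997497 in the 6 node libraries, with 17188 to 18679 genes detected, and 10932330 to 12869678 at P4. Levels are given as CPM, counts scaled to a common library total, not corrected for gene length, so they compare samples and not genes. A single read was worth 0.0616 to 0.133 CPM in these 6 libraries. Libraries of one stage differed by far more than counting error (chi-squared over its degrees of freedom of at least 41.12), so no 2 were the same library. Each gene was tested with limma on log2(CPM + 1), with p-values adjusted by the Benjamini-Hochberg method over 17568 genes and a call under 0.05. Changes are log2 differences, P14 minus E14.5, with the standard error (SE), and adding 1 CPM understates the changes of genes with low levels. Where 3 values follow each other they belong to libraries 1, 2 and 3 of the stage. For called genes, unless an overlap is stated or the printed values show one, all P14 libraries lay on one side of all E14.5 libraries.

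Of the 17568 genes tested, 4263 (24.3%) were called, and 1712 of them (9.74%) rose while 2551 (14.5%) fell. Rises were the larger changes, with a median of 1.85 log2 units and 105 genes above 4, against a median of −1.42 and 44 genes past −4 among the falls. The groups of 3 libraries did not overlap for 6910 genes (39.3%), among them 1635 of the rising and 2470 of the falling genes. The balance of rises and falls depended on scaling. The median gene stood at −0.18 on the deposited scaling, and rises made up 40.2% of the calls. That share was 48.9% (2032 rose, 2121 fell) after equal upper quartiles and 49.7% (2045 and 2073) after equal sarcomere gene levels. With edgeR's quasi-likelihood test on the recovered reads it was 53.5% (1965 and 1706, median gene 0.00), and with DESeq2 54.9% (2431 and 1994, median gene 0.03). The deposited scaling therefore lies 0.11 to 0.21 log2 units lower than the others, and small falls should be read against the median gene.

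The 12 largest rises and the 12 largest falls were ranked by size among called genes whose stages did not overlap. Some gene classes, listed under the processing of the data, were left out of this ranking. The rises joined nerve-type membrane proteins, elastic and vascular matrix genes and a few secreted factors. Cntn2, the cell adhesion protein contactin-2, stood at 0.362, 1.05 and 0.401 CPM at E14.5 and at 359, 503 and 447 CPM at P14. This was a change of 8.10 ± 0.69 (adjusted p = 3.2e-08), and the lowest P14 library lay far above the highest E14.5 library. Hamp, the iron hormone hepcidin, went from 0, 0.0616 and 1.1 CPM to 226, 456 and 135 CPM (7.53 ± 0.52, adjusted p = 1.3e-09). Hamp has a near-identical copy, Hamp2, so its reads may be shared between the copies. Myh11, smooth muscle myosin, rose by 6.92 ± 0.90, Igfbp7, a secreted binding protein, by 6.76 ± 0.42, and Lynx1, a membrane-anchored modulator of nicotinic receptors, by 6.57 ± 0.34. The others of the 12 were Kcna1, Pcolce2, Eln, Sod3, C1s, Pi16 and Hmcn2, with changes between 5.80 and 6.70. C1s, a complement protease, had no read in any E14.5 library and 68.5, 47.8 and 77.1 CPM at P14, at least 275-fold higher when set against 3 reads per library.

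Among the 12 largest falls, Cited1, a transcriptional coactivator, stood at 539, 446 and 404 CPM at E14.5 and at 2.95, 3.47 and 9.6 CPM at P14 (−6.33 ± 0.43, adjusted p = 1.3e-09). Cckar, the cholecystokinin A receptor, went from 327, 330 and 264 CPM to 2.29, 4.93 and 2.32 CPM (−6.25 ± 0.56, adjusted p = 6.2e-08). Tnni1, the slow skeletal troponin I of fetal heart, was at 1100, 1217 and 936 CPM and then at 12.8, 12 and 14.8 CPM (−6.25 ± 0.22, adjusted p = 3.5e-14). Stages without overlap were a condition of this ranking, so the separation of these genes is not a separate result. Bmp7, a bone morphogenetic protein, fell by 5.93, Hif3a, a hypoxia-inducible factor subunit, by 5.60, and H19, an imprinted noncoding RNA, by 5.55. The remaining members of the 12 were Nrk, Odz2 (a teneurin), Calca, Bex1, Igf2bp1 and Prrx2, with changes between −5.77 and −4.80. Bex1 had no read in any P14 library, at least 132-fold lower than at E14.5. In the scatter of all genes these changes lie at the edges of the distribution, as follows from ranking by size, across a wide range of levels.

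**Figure D1:**
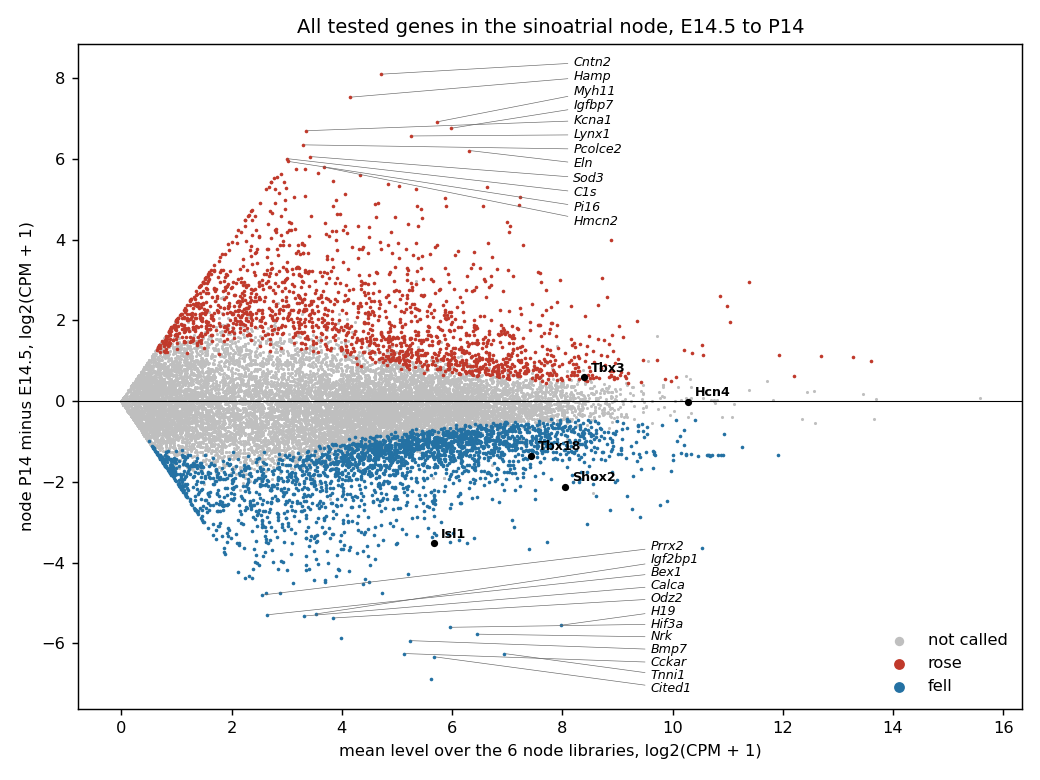
Change of every tested gene in the node (P14 minus E14.5, log2 units of CPM + 1, vertical axis) against its mean level over the 6 libraries (horizontal axis, log2(CPM + 1)); coloured points were called, and labels mark the 12 largest rises, the 12 largest falls and, in bold, the node genes. Among labelled genes Cntn2 at 8.10 is the highest and Cited1 at −6.33 the lowest, and Hcn4 lies at −0.01.

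Groups of genes were compared through 35 pathway lists and 15 lists of cell type markers, which together held 883 genes of the file. Of these, 854 passed the filter, 244 rose and 167 fell. The plot of list shares sets each list beside the 9.74% and 14.5% of all genes. Mitosis genes, DNA replication genes and imprinted growth genes lay furthest toward falls, and the 2 adipocyte markers, immediate early genes and small proteoglycans had the largest shares of rises. No list's share was tested against that of all genes, and the list counts that follow are to be read beside these shares.

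**Figure D2:**
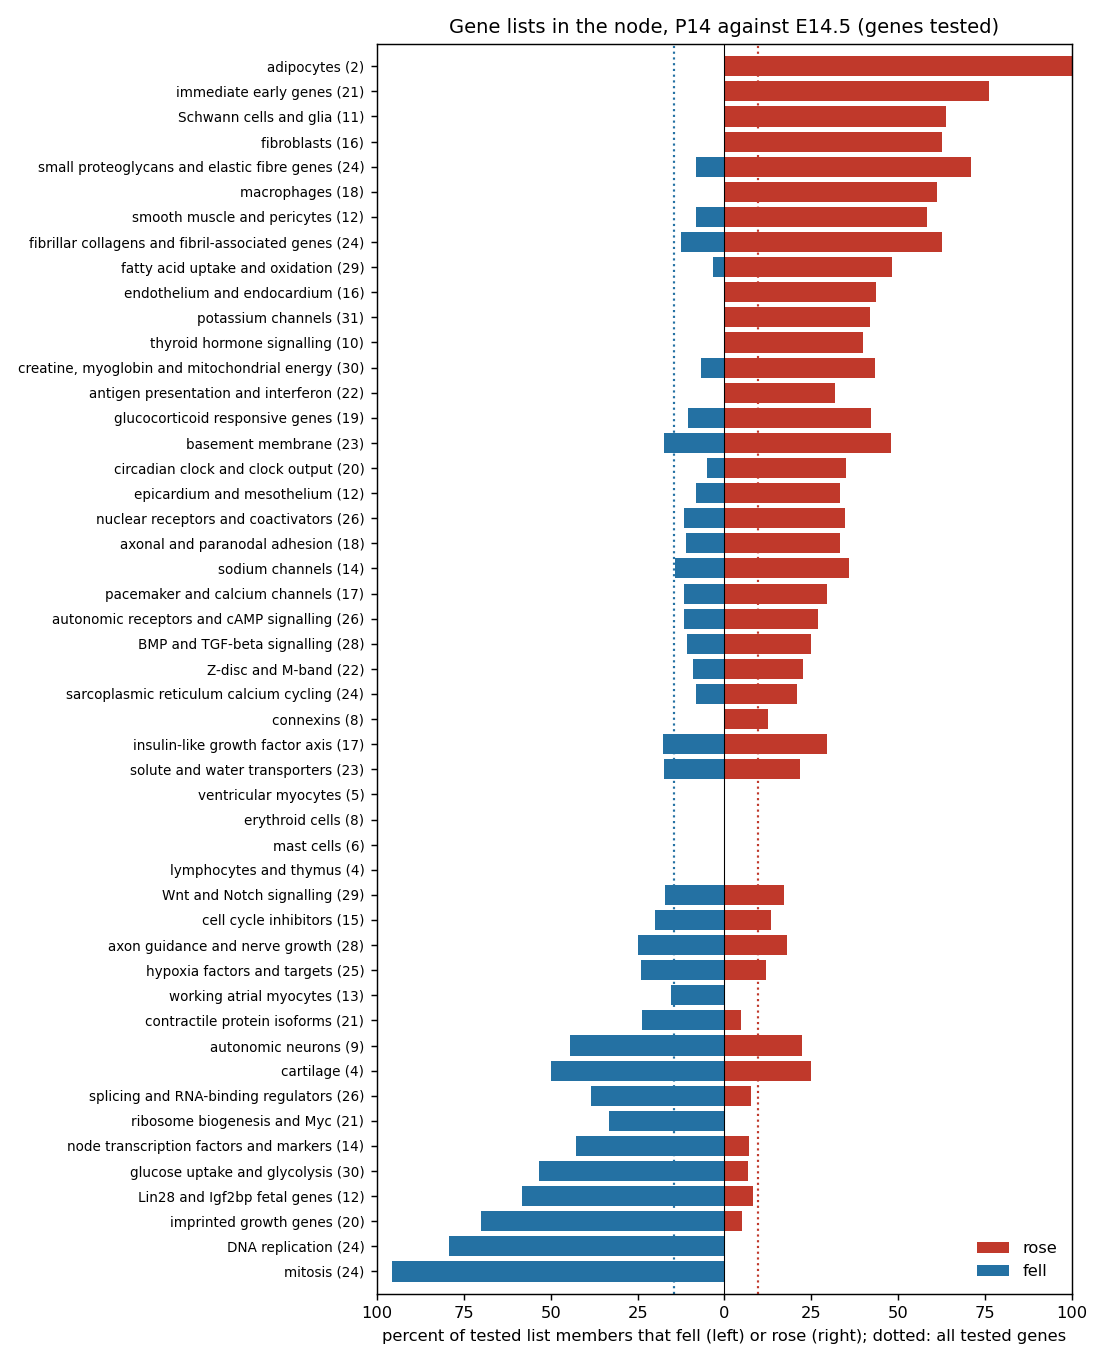
Percent of the tested members of each gene list that fell (left) or rose (right) in the node from E14.5 to P14; dotted lines mark the shares over all tested genes, 14.5% and 9.74%. All but 1 of the 24 mitosis genes fell, and 16 of 21 immediate early genes rose.

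Isl1, Shox2 and Tbx18 fell in the node, while Tbx3 and Hcn4 were not called. Among 14 node factors and markers 6 fell and 1 rose, and their median change was −0.77. Isl1, a LIM homeodomain factor of cardiac progenitors, stood at 165, 246 and 125 CPM at E14.5 and at 18.9, 5.06 and 27.4 CPM at P14. Its change was −3.52 ± 0.58 (adjusted p = 1.2e-04), and all P14 libraries were below all E14.5 libraries. Shox2, a homeodomain factor that represses Nkx2-5, went from 507, 644 and 517 CPM to 102, 129 and 152 CPM (−2.12 ± 0.47, adjusted p = 0.0019). Tbx18, which builds the head of the node, went from 290, 282 and 255 CPM to 103, 100 and 119 CPM (−1.35 ± 0.24, adjusted p = 2.3e-04). Each of these genes was still detected in every P14 library, with lowest values of 102 CPM (Shox2), 100 CPM (Tbx18) and 5.06 CPM (Isl1). These levels do not rank the genes against each other. Smoc2, a secreted matrix protein enriched in node, fell by 1.95, and Vsnl1, the calcium sensor visinin-like 1, fell by 0.99 from 1606, 1830 and 1214 CPM to 890, 685 and 741 CPM. Tbx3, the repressor of atrial genes, had 289, 324 and 215 CPM at E14.5 and 400, 459 and 377 CPM at P14. The stages did not overlap, but the change of 0.59 ± 0.34 was not called (adjusted p = 0.23). It was called only when the 6 node libraries were fitted by themselves (adjusted p = 0.026). Hcn4, the gene behind the dissection check, was at 1245, 1351 and 1143 CPM and at 1261, 1302 and 1141 CPM (−0.01 ± 0.34). Nkx2-5, the factor of working myocardium, was at 4.13 to 9.25 CPM and 1.92 to 8.66 CPM, with overlapping stages. Tbx2, a relative of Tbx3, was the riser of the list (1.41, adjusted p = 0.041). Its call was lost without any E14.5 library (adjusted p = 0.073 to 0.11), without P14 library 1 (0.092) or 2 (0.13) and with a replicate block (0.054), and without E14.5 library 1 or 2 or P14 library 1 or 2 the list had 0 rising genes. Other settings gave more rises, 2 with edgeR, 3 under equal sarcomere levels or in the fit of 6 libraries and 4 with DESeq2.

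Channels that carry pacemaker current changed unevenly. Among 17 genes for HCN channels, voltage-gated calcium channels and the sodium-calcium exchanger, 5 rose and 2 fell (median 0.26). Cacna1g, the T-type channel Cav3.1, went from 38.7, 36.5 and 15.4 CPM to 288, 418 and 188 CPM (3.29 ± 0.42, adjusted p = 6.8e-06). It was already high at P4, at 397 to 430 CPM. Cacna1d, the L-type channel Cav1.3 of the node, had a change of 0.71 that limma did not call on the deposited scaling (adjusted p = 0.089), although its stages did not overlap. It was called under equal upper quartiles (0.84, adjusted p = 0.033) and equal sarcomere levels (adjusted p = 0.023), with edgeR (adjusted p = 0.026), with DESeq2 (adjusted p = 0.009) and in a fit of the 6 node libraries alone (adjusted p = 0.018). The other T-type gene, Cacna1h, was at −0.95 without a call (adjusted p = 0.34; 0.011 in the fit of 6 libraries). Cacna2d2, an auxiliary calcium channel subunit, fell from 1608, 1843 and 1674 CPM to 596, 736 and 557 CPM (−1.45 ± 0.29), and Slc8a1, the sodium-calcium exchanger, fell by 0.81 ± 0.20. Cacna2d3 rose from 0, 0.0616 and 1.71 CPM to 5.6 to 13.1 CPM. Without E14.5 library 2 or P14 library 3, 3 of these genes rose instead of 5.

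Potassium channel genes rose and none fell, 13 of 31 against 0 (median 0.48). Kcna1, the axonal channel Kv1.1, had no read at E14.5 and 121, 70.5 and 128 CPM at P14, at least 454-fold higher (6.70 ± 0.58, adjusted p = 3.6e-08). It was still at 0.301 to 4.96 CPM at P4. Kcnt2, a sodium-activated channel, went from 2.02, 2.47 and 7.72 CPM to 140, 141 and 117 CPM (4.89 ± 0.52, adjusted p = 5.9e-07). Kcna6, a relative of Kcna1, rose by 3.12. Kcnip2, the subunit that sets the transient outward current, rose by 3.28, with P14 library 2 at 48.4 CPM and the others at 13.8 and 10.6 CPM. The subunits of the acetylcholine-gated channel were called at 0.99 (Kcnj3, with overlapping stages, adjusted p = 0.025) and 0.64 (Kcnj5, adjusted p = 0.038). Both calls were lost without E14.5 library 1 (adjusted p = 0.16 and 0.22) or P14 library 2 (0.14 and 0.051) or 3 (0.065 and 0.14), that of Kcnj3 also without E14.5 library 2 (0.057), and that of Kcnj5 without E14.5 library 3 (0.068) or P14 library 1 (0.059). Without E14.5 library 1 or P14 library 3, 7 members rose, and without P14 library 3, 2 fell.

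Sodium channel genes were led by Scn7a, a sodium-sensing channel of glia and other cells, which went from 30.4, 31.6 and 19.6 CPM to 636, 502 and 657 CPM (4.43 ± 0.33, adjusted p = 3.8e-09). Among 14 members 5 rose and 2 fell (median 1.02). Scn4b, an auxiliary subunit, had no read in any node library at E14.5 or P4 and 7.77, 4.27 and 9.04 CPM at P14, at least 30.0-fold higher (2.95 ± 0.36, adjusted p = 3.6e-06). Fgf13, an intracellular regulator of sodium channels, fell from 79.5, 72.3 and 72.8 CPM to 6.79, 9.86 and 7.6 CPM (−3.07 ± 0.30, adjusted p = 2.4e-07). Scn2a1 rose by 2.05, but not without E14.5 library 3 (adjusted p = 0.09) or P14 library 2 (adjusted p = 0.087). Leaving out any P14 library left 3 rising members, and leaving out E14.5 library 2 or 3 or P14 library 1 or 2 left 1 falling member.

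Genes for calcium cycling by the sarcoplasmic reticulum rose in 5 of 24 cases and fell in 2 (median 0.35), with the pump and its inhibitor among the rises. Atp2a2, the calcium pump SERCA2, stood at 4433, 4844 and 4331 CPM and then at 9187, 9832 and 10301 CPM (1.11 ± 0.19, adjusted p = 1.4e-04). Pln, phospholamban, went from 1381, 932 and 813 CPM to 2257, 2129 and 2389 CPM (1.15 ± 0.31, adjusted p = 0.0087). S100a1, a calcium-binding activator of the pump and the release channel, rose by 1.77. Ryr2, the cardiac release channel, was at 1600 to 1925 CPM and 1480 to 1959 CPM, overlapping stages with a change of −0.04. Fkbp1b, the immunophilin bound to the release channel, fell by 1.83. Calr, a calcium buffer of the reticulum, fell by 0.65, but not without E14.5 library 2 (adjusted p = 0.09) or P14 library 3 (0.056), nor with edgeR (0.097), DESeq2 (0.11) or equal sarcomere levels (0.13). The count of rising genes was 3 without E14.5 library 3 or P14 library 3, 8 with edgeR and 10 with DESeq2, and 1 gene fell without E14.5 library 2 or P14 library 3.

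Connexins were mostly not called, with 1 of 8 rising, beside 9.74% of all genes. That gene, Gjc3, the connexin 29 of myelinating glia, went from 0, 0.616 and 0.301 CPM to 3.93, 5.73 and 4.24 CPM (2.12 ± 0.51, adjusted p = 0.004), and edgeR did not call it (adjusted p = 0.052). Gja1, the connexin 43 of fast-conducting muscle, was at 56.4, 28.1 and 48 CPM at E14.5, at 7.52 to 13.1 CPM at P4 and at 44.2, 155 and 59.9 CPM at P14. Its E14.5 and P14 libraries overlapped, P14 library 2 was the highest, and the change of 0.80 ± 0.33 was not called (adjusted p = 0.081). Under equal upper quartiles it was called at 0.92 (adjusted p = 0.037), as it was under equal sarcomere levels (adjusted p = 0.044), edgeR (adjusted p = 0.019), DESeq2 (adjusted p = 0.0041) and without P14 library 1 (adjusted p = 0.014). Gja5 (connexin 40) and Gjc1 (connexin 45) had overlapping stages and changes of −0.30 and −0.45. Without P14 library 1 or 2, 2 connexins rose, as under equal upper quartiles, equal sarcomere levels or edgeR, and with DESeq2 3 did.

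Of 21 contractile protein genes 5 fell and 1 rose (median −0.43). The falling genes were slow skeletal isoforms and thin or thick filament proteins of heart, while Myh7, the beta myosin of fetal heart, was at −0.39 without a call. Besides Tnni1 (above), Tnnt1, the slow skeletal troponin T, fell from 50.9, 34.9 and 21.6 CPM to 2.13, 8.53 and 2.48 CPM (−2.89 ± 0.43, adjusted p = 4.1e-05). Myh7b, a minor slow myosin, went from 41.7, 21.7 and 18.7 CPM to 0.0818, 1.73 and 0.64 CPM (−3.98 ± 0.51, adjusted p = 7.4e-06). Tnnc1, the troponin C of heart and slow muscle, fell from 1035, 949 and 693 CPM to 273, 254 and 255 CPM (−1.75 ± 0.21, adjusted p = 3.2e-06), and Mybpc3 fell by 1.08. Tnnt2, the cardiac troponin T, and Myh6, the alpha myosin of atrium and node, had changes of 0.23 and 0.17 with overlapping stages. Tnni3, the adult troponin I that replaces Tnni1 in heart, was listed at only 0.8 to 3.41 CPM in all 6 libraries. It was as low in atrium, with means of 2.5 and 1.26 CPM, although it is known as an abundant transcript of heart muscle. These values are therefore not taken as its level, and nothing on an exchange of troponin I was read from them. Tpm1, a tropomyosin, was the rising member (0.62), and 0 rose without E14.5 library 3 or P14 library 1 or 3.

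Genes of the Z-disc and M-band rose in 5 of 22 cases and fell in 2 (median 0.26). Xirp2, a Xin-repeat protein of the intercalated disc, went from 7.16, 28.4 and 15.1 CPM to 621, 476 and 814 CPM (5.31 ± 0.44, adjusted p = 2.0e-08). Myoz2, calsarcin-1 of the cardiac Z-disc, stood at 119, 72.8 and 120 CPM and then at 564, 552 and 563 CPM (2.45 ± 0.22, adjusted p = 4.9e-08). Tcap, the titin cap protein telethonin, rose by 2.76 and Neb, nebulin, by 1.92. In all of these the P4 libraries lay mostly between the other stages. Synpo2l, an actin-bundling protein of the Z-disc, fell by 1.11, and 1 member fell with edgeR or DESeq2.

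Of 18 genes for membrane proteins of axons and of the junctions between axon and myelin 6 rose and 2 fell (median 0.34). Beside Cntn2 and Lynx1, Chl1, a close homologue of the adhesion protein L1, went from 0.145, 0.308 and 0.1 CPM to 74.6, 26.9 and 61.5 CPM (5.43 ± 0.62, adjusted p = 1.6e-06). Nfasc, neurofascin, went from 6.29, 4.56 and 2.21 CPM to 78.6, 173 and 126 CPM (4.57 ± 0.62, adjusted p = 1.3e-05). L1cam rose by 3.87. Ncam1, the neural cell adhesion molecule, fell from 314, 308 and 315 CPM to 58.8, 67.8 and 92 CPM (−2.11 ± 0.26, adjusted p = 5.6e-06), and Nlgn1, a postsynaptic adhesion protein, fell by 1.41 with limma but not with edgeR or DESeq2 (adjusted p = 0.1 in both). Without E14.5 library 2 or 3, 1 of them fell. Markers of glia moved in parallel and those of neurons did not. The summed level of the Schwann cell and glial list was 120 to 159 CPM at E14.5 and 466 to 610 CPM at P14, and 7 of its 11 tested genes rose (median 1.81; 4 without P14 library 1). They included Cdh19, from 0, 0.0616 and 0.903 CPM to 37.8, 18 and 17.2 CPM, Pmp22 (1.90) and Erbb3 (2.49), while Sox10 (2.32) was not called with edgeR (adjusted p = 0.097), without E14.5 library 1 (adjusted p = 0.079) or P14 library 1 (adjusted p = 0.055). The part of glial RNA in the rise of the axonal genes was not tested.

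The summed level of the autonomic neuron list went the other way, from 221 to 278 CPM to 90.1 to 115 CPM. Of its 9 tested genes 4 fell and 2 rose (median −0.45), and Phox2a had no read at either stage. Th, tyrosine hydroxylase of catecholamine synthesis, was at 18.6, 49.7 and 8.53 CPM and then at 1.06, 3.33 and 0.32 CPM (−3.22 ± 0.75, adjusted p = 0.0029), after 9.83 to 185 CPM at P4. Uchl1, a neuronal ubiquitin hydrolase, fell by 3.36 and Snap25, a presynaptic membrane protein of vesicle fusion, by 1.78. Dbh, which makes noradrenaline, went from 1.23, 1.11 and 4.11 CPM to 27.1, 33.3 and 23.6 CPM (3.32 ± 0.43, adjusted p = 8.8e-06), so the enzymes of one pathway moved in opposite directions. Stmn2, a growth cone protein, also rose (2.30), but not without E14.5 library 2 (adjusted p = 0.11) or 3 (0.063) or P14 library 3 (0.1), nor with edgeR (0.081), which leaves 1 rising gene.

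Receptors and enzymes of autonomic control rose in 7 of 26 cases and fell in 3 (median 0.23; 7 fell in the fit of 6 libraries). Chrm2, the muscarinic receptor through which the vagus slows the node, stood at 166, 173 and 129 CPM and then at 214, 351 and 390 CPM (0.99, adjusted p = 0.0057). Adra1a, an alpha adrenergic receptor, went from 0.145, 0.0616 and 0.602 CPM to 21, 15.1 and 27.4 CPM (4.11 ± 0.78, adjusted p = 5.2e-04). Adrb1, the main cardiac beta receptor, had overlapping stages and a change of −0.22. Rgs5, a regulator of G protein signalling typical of pericytes, rose by 5.05, Pde1c, a phosphodiesterase, by 1.63 and Rgs2 by 1.96. Adcy1, a calcium-stimulated adenylyl cyclase, fell from 24.7, 30.6 and 47.4 CPM to 3.52, 10.7 and 7.76 CPM (−2.14 ± 0.39, adjusted p = 3.7e-04), and the phosphodiesterase Pde3b fell by 1.60.

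Of 28 axon guidance and nerve growth genes 7 fell and 5 rose (median −0.03). Sema3a, a repellent of sympathetic axons, went from 41, 57.1 and 45.1 CPM to 0.982, 10.7 and 1.2 CPM (−3.70 ± 0.53, adjusted p = 2.4e-05). Slit2, another repellent, fell by 1.94, the netrin receptor Unc5b by 1.23 and Efnb2, an ephrin, by 1.15. Ntn1, netrin-1, rose from 36.4, 14.8 and 19.8 CPM to 112, 129 and 78 CPM (2.19 ± 0.30, adjusted p = 1.7e-05). Without E14.5 library 1 or 2 or P14 library 2, 3 genes rose.

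Cell division genes showed the most uniform fall. Of 24 mitosis genes 23 fell and 0 rose (median −3.42), and of 24 DNA replication genes 19 fell and 0 rose (median −1.90), against 14.5% of all genes. Mki67, the proliferation antigen, stood at 1053, 1150 and 832 CPM at E14.5, at 239, 285 and 678 CPM at P4 and at 102, 118 and 148 CPM at P14 (−3.04 ± 0.26, adjusted p = 3.1e-08). Ube2c, the ubiquitin-conjugating enzyme of the anaphase complex, went from 185, 176 and 127 CPM to 9.49, 8.4 and 4.88 CPM (−4.28 ± 0.33, adjusted p = 7.6e-09). Top2a, topoisomerase II, fell by 3.12, Birc5, survivin, by 4.34 and Cenpf, a kinetochore protein, by 3.52. P4 library 3 held the highest level of Mki67, Ube2c, Top2a, Cenpf and Birc5 at that stage. Cenpa, a centromeric histone, was the mitosis gene that was not called, with overlapping stages at 103, 92.9 and 67.8 CPM and 69.6, 112 and 50.7 CPM. Among replication genes, Rrm2, a subunit of ribonucleotide reductase, fell by 3.92, its partner Rrm1 by 2.11, and Mcm2, Mcm6 and Mcm7 of the replicative helicase by 2.73, 2.36 and 1.83.

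The mitosis genes can be shown at the level of sequence, since promoters of this class are known for a pair of short elements, the CHR element and the CCAAT box. In RefSeq promoters of mouse build GRCm38.p6, 250 bases before to 50 after the start, 19 genes of the list were matched through 20 promoters. The CHR letters TTTGAA or TTCGAA were found on either strand in 16 of 20 (80.0%), against 6316 of 32851 promoters (19.2%). The letters CCAAT were found on either strand in 18 of 20 (90.0%), against 12289 promoters (37.4%). These are matches of letters in a window and not shown binding sites, and no data on binding were used. Stretches of 4 promoters of genes named above are printed because they carry both elements, 5′ to 3′ along the gene's strand, with the matched letters of either strand in capitals:
Ube2c, chr2:164769689-164769917, plus strand: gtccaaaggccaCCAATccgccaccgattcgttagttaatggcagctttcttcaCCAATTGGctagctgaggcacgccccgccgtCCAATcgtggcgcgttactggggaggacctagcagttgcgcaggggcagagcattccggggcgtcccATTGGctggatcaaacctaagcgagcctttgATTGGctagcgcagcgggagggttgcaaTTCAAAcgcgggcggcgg
Mki67, chr7:135716460-135716579, minus strand: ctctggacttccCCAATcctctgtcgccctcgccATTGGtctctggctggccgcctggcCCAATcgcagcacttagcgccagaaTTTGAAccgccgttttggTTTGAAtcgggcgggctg
Top2a, chr11:99024195-99024428, minus strand: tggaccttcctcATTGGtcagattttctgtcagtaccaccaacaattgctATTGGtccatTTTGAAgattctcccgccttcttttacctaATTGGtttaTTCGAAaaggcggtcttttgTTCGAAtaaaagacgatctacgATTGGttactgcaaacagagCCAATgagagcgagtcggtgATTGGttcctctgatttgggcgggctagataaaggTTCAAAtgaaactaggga
Cenpf, chr1:189688067-189688230, minus strand: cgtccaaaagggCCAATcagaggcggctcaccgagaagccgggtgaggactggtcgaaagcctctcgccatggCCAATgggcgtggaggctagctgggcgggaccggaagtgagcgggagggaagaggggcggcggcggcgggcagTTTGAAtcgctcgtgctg
In Top2a several copies of both elements stand within the stretch, and in Ube2c repeated CCAAT boxes lie before a single CHR on the opposite strand. Birc5, which fell by 4.34, holds neither set of letters in its window.

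Inhibitors of the cell cycle moved in both directions, with 3 of 15 falling and 2 rising (median −0.08), beside 14.5% and 9.74% of all genes. Btg2, an antiproliferative immediate early gene, went from 12.7, 8.75 and 10.8 CPM to 110, 163 and 82.1 CPM (3.30 ± 0.30, adjusted p = 7.1e-08). Rb1, the retinoblastoma protein, rose by 0.71 but not without E14.5 library 1 (0.47, adjusted p = 0.2) or P14 library 1 (adjusted p = 0.08) or 2 (adjusted p = 0.1), and its relative Rbl1 fell by 2.45. Cdkn1c, the imprinted inhibitor p57, fell from 123, 78.8 and 175 CPM to 16.1, 34.4 and 14.5 CPM (−2.51 ± 0.35, adjusted p = 1.5e-05). Cdkn1a, the inhibitor p21, had overlapping stages and a change of 0.32. The count of rising inhibitors was 1 without E14.5 library 1 or P14 library 1 or 2.

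Imprinted genes of fetal growth fell in 14 of 20 cases and rose in 1 (median −1.95). Igf2, the fetal growth factor, stood at 4631, 5132 and 6058 CPM and then at 540, 370 and 370 CPM (−3.64 ± 0.23, adjusted p = 3.9e-10). H19, expressed from the neighbouring locus, went from 1647, 1275 and 2386 CPM to 64.6, 23.9 and 29 CPM. Igf2r, the receptor that removes Igf2, fell from 1836, 1893 and 1781 CPM to 238, 248 and 263 CPM (−2.88 ± 0.15, adjusted p = 2.4e-11). An antisense transcript overlaps Igf2r and these libraries carry no strand, so its reads cannot be separated. Grb10, an adaptor that restrains insulin signalling, fell by 2.35 and Mest by 3.48. The rising member was Dcn, a small matrix proteoglycan that is also on the fibroblast list.

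RNA-binding proteins of the fetal growth programme and their targets fell in 7 of 12 cases and rose in 1 (median −1.87). Igf2bp1, which binds Igf2 messenger RNA, went from 73.3, 61.8 and 78.1 CPM to 0.164, 0.933 and 1.84 CPM (−5.27 ± 0.44, adjusted p = 2.5e-08). Lin28b, the repressor of let-7 maturation, was at 14.8, 16.2 and 29.9 CPM and then at 0, 0 and 2.08 CPM (−3.81 ± 0.73, adjusted p = 5.4e-04). Hmga2, a chromatin protein of growing tissue, fell by 3.49, with P14 library 2 at 7.2 CPM and the others below 1 CPM, and Igf2bp2 fell by 1.93. Nr6a1, a nuclear receptor, rose by 1.69, but not without E14.5 library 2 (adjusted p = 0.059) or P14 library 2 (0.07), which leaves 0 rising genes. In the insulin-like growth factor axis 5 of 17 genes rose and 3 fell (median 0.53). The binding protein genes Igfbp7 and Igfbp6 (4.65) rose with the protease Htra1 (2.48). Without E14.5 library 1 or P14 library 1, 3 rose.

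Fuel use genes separated by pathway. Of 29 fatty acid uptake and oxidation genes 14 rose and 1 fell (median 0.57), and of 30 glucose uptake and glycolysis genes 16 fell and 2 rose (median −0.75). Cd36, the fatty acid translocase, stood at 159, 156 and 174 CPM and then at 693, 724 and 707 CPM (2.11 ± 0.17, adjusted p = 1.2e-08). Acsl1, which activates long-chain fatty acids, went from 55.2, 41.7 and 22.4 CPM to 219, 333 and 281 CPM (2.84 ± 0.25, adjusted p = 5.6e-08). Pnpla2, the triglyceride lipase, rose by 1.97, Slc27a1, a fatty acid transporter, by 2.75, and Pdk4, which holds pyruvate out of oxidation, by 2.01. Slc2a1, the fetal glucose transporter GLUT1, fell from 182, 173 and 252 CPM to 19.9, 20.1 and 20 CPM (−3.26 ± 0.26, adjusted p = 9.5e-09). Slc2a4, the insulin-responsive transporter GLUT4, had overlapping stages and was called at 1.07 (adjusted p = 0.032), but not without E14.5 library 1 (0.11) or 2 (0.12) or P14 library 1 (0.055) or 2 (0.2). Pgam1 fell by 1.43 and Aldoc, an aldolase, by 3.99, and Eno1 (from 602, 562 and 600 CPM to 154, 146 and 138 CPM) and Gapdh (−1.32) fell too, although both have processed pseudogenes that can share reads. Without E14.5 library 1, 9 fatty acid genes rose, and the falling one, Acads, was not called without any 1 of the other libraries except P14 library 2 (adjusted p = 0.058 to 0.18) nor under the other scalings, edgeR or DESeq2 (0.079 to 0.14). Only 1 glycolysis gene rose without E14.5 library 1 or 2 or P14 library 2.

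Genes for creatine, myoglobin and mitochondrial energy rose in 13 of 30 cases and fell in 2 (median 0.54). Mb, myoglobin, was at 26.4, 0.801 and 1.81 CPM at E14.5 and at 121, 455 and 159 CPM at P14 (5.33 ± 0.69, adjusted p = 7.6e-06). E14.5 library 1 and P14 library 2 were the highest of their stages, and the stages did not overlap. Ckmt2, the creatine kinase of mitochondria, went from 0.434, 2.4 and 10.4 CPM to 23.8, 88.2 and 42.7 CPM (3.59 ± 0.76, adjusted p = 0.0014), and Ogdh, of the citric acid cycle, rose by 0.94. Idh2, a mitochondrial isocitrate dehydrogenase, fell from 662, 572 and 553 CPM to 183, 184 and 159 CPM (−1.75 ± 0.18, adjusted p = 5.3e-07). Without P14 library 2, 8 rose, and without E14.5 library 1 or P14 library 3, 1 fell.

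Hormone receptors and their targets rose more often than they fell. Of 26 nuclear receptor and coactivator genes 9 rose and 3 fell (median 0.47), and of 10 thyroid hormone genes 4 rose and 0 fell (median 0.64). Klf9, a direct target of thyroid and glucocorticoid hormones, stood at 5.64, 3.33 and 3.41 CPM and then at 96.5, 106 and 94.3 CPM (4.31 ± 0.40, adjusted p = 8.6e-08). Hr, the corepressor hairless, had 0, 0 and 0.1 CPM and then 64.2, 52.6 and 31.9 CPM (5.56 ± 0.59, adjusted p = 6.0e-07). Dio2, the enzyme that activates thyroid hormone, went from 0.289, 0.431 and 0 CPM to 72.4, 61.6 and 61 CPM (5.75 ± 0.72, adjusted p = 5.4e-06). Thrb, the beta thyroid hormone receptor, rose by 3.75, while Thra, the alpha receptor, had a change of −0.24 that was not called. Nr3c2, the mineralocorticoid receptor, rose by 2.74, and Esrrg, an oestrogen-related receptor of energy metabolism, fell from 256, 301 and 237 CPM to 63.1, 89.4 and 76.5 CPM (−1.79 ± 0.30, adjusted p = 1.6e-04).

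Of 19 glucocorticoid responsive genes 8 rose and 2 fell (median 1.18). Dusp1, a phosphatase of mitogen-activated kinases, went from 14.6, 21.3 and 36.3 CPM to 290, 429 and 220 CPM (3.69 ± 0.35, adjusted p = 1.6e-07), and Errfi1, a feedback inhibitor of the epidermal growth factor receptor, from 9.47, 13.6 and 11.2 CPM to 122, 222 and 107 CPM. Dusp1 is also on the list of immediate early genes below. The falling genes of the glucocorticoid list, opposite to most of its calls, were Hif3a (above) and Fkbp5. Fkbp5, a classic glucocorticoid target, fell from 10.4, 13.7 and 16.9 CPM to 1.39, 0.533 and 2 CPM (−2.70, adjusted p = 0.0011). Circadian clock genes rose in 7 of 20 cases and fell in 1 (median 0.82). Npas2 rose by 2.99, Rora by 2.33, Nr1d2 by 1.31 and Clock by 0.79. Nr1d1, the clock repressor Rev-erb alpha, stood at 15.8, 21.9 and 15.9 CPM, at 8.12 to 29.9 CPM at P4 and at 84.7, 87.6 and 99 CPM at P14 (2.29 ± 0.42, adjusted p = 3.1e-04). The time of day of collection was not given in the sources used here. The falling clock gene, Nfil3 (−1.37), was not called without any 1 of the 6 libraries (adjusted p = 0.053 to 0.16), and DESeq2 called 11 clock genes as rising.

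Immediate early genes rose in 16 of 21 cases and none fell (median 2.50). Egr1 was at 32.1, 44.6 and 30.8 CPM and then at 256, 852 and 198 CPM (3.28 ± 0.47, adjusted p = 2.4e-05). Fos, the other textbook member, went from 0.795, 0.493 and 0.301 CPM to 27.8, 74.4 and 21.8 CPM (4.60, adjusted p = 3.6e-04). P14 library 2 held the highest level of both genes. Fosl2 rose by 2.94, Cyr61, a matricellular protein, by 3.61, and Nr4a1, an orphan nuclear receptor, by 4.19. These genes respond within minutes to handling of tissue, and the time from death to freezing was not given in the sources used here, so its part was not tested.

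Hypoxia factors and targets were mixed, with 6 of 25 falling and 3 rising (median −0.27). Epas1, the endothelial factor HIF-2 alpha, went from 72.3, 55.5 and 61.8 CPM to 630, 549 and 555 CPM (3.18 ± 0.21, adjusted p = 8.6e-10), while Hif3a fell from 363, 371 and 600 CPM to 8.84, 10.4 and 5.36 CPM. Pdk1 and Mif, targets of the pathway, fell by 1.86 and 1.73. Without E14.5 library 2, 1 rose. The summed level of the endothelial marker list was 680 to 1199 CPM at E14.5 and 1714 to 1883 CPM at P14, with 7 of 16 genes rising and none falling (median 0.67). Among these Eng rose by 1.77, Pecam1 by 1.44 and Kdr by 1.01, and Vwf (2.16) was not called without E14.5 library 1 (adjusted p = 0.056), E14.5 library 2 (adjusted p = 0.069) or P14 library 1 (adjusted p = 0.068). Without E14.5 library 2, 2 endothelial genes fell. The part of vessel cells in the rise of Epas1 was not tested.

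Splicing and RNA-binding regulators fell in 10 of 26 cases and rose in 2 (median −0.43). The rising genes were Mbnl1 and Mbnl2, the muscleblind factors of the adult splicing programme, and Mbnl1 went from 173, 174 and 191 CPM to 446, 562 and 462 CPM (1.44 ± 0.16, adjusted p = 8.6e-07). Hnrnpa2b1 fell from 955, 1002 and 806 CPM to 437, 469 and 457 CPM (−1.01 ± 0.15, adjusted p = 4.4e-05), Srsf3 by 0.82 and Hnrnpa1, which has processed pseudogenes, by 1.60. Ribosome biogenesis genes fell in 7 of 21 cases and none rose (median −0.79). Npm1, nucleophosmin, with processed pseudogenes of its own, went from 530, 469 and 589 CPM to 235, 182 and 226 CPM (−1.30 ± 0.20, adjusted p = 4.4e-05), and Nop58, of the small nucleolar ribonucleoproteins, fell by 1.39. Ncl fell by 0.79 with limma and was not called by edgeR (adjusted p = 0.052). The median gene stood at −0.18 on the deposited scaling. With edgeR, where the median gene was at 0.00, Ncl stood at −0.55. Only 6 splicing genes fell under equal sarcomere levels, edgeR or DESeq2, and 4 ribosome genes under edgeR or without E14.5 library 1.

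Matrix genes rose across the node. Collagen and collagen-associated genes rose in 15 of 24 cases and fell in 3 (median 1.60), and small proteoglycan and elastic fibre genes rose in 17 of 24 and fell in 2 (median 2.72). Col3a1, a fibrillar collagen, stood at 724, 826 and 1453 CPM and then at 7520, 6892 and 7799 CPM (2.95 ± 0.34, adjusted p = 1.9e-06), and Col1a2 went from 624, 956 and 1166 CPM to 5092, 4703 and 4030 CPM (2.37 ± 0.25, adjusted p = 6.5e-07). Eln, elastin, went from 12.9, 4.93 and 8.53 CPM to 897, 503 and 707 CPM (6.21 ± 0.64, adjusted p = 3.9e-07). Podn, podocan, rose by 5.65, Mfap5, a microfibril protein, by 5.37, Prelp by 4.34, Dcn, decorin, by 4.00 and Col14a1 by 3.87. Fbn2, the fetal fibrillin, fell from 1201, 1467 and 964 CPM to 172, 219 and 161 CPM (−2.70 ± 0.18, adjusted p = 9.7e-10). The collagens that fell, Col2a1, Col9a1 and Col11a1 (−3.51), are cartilage-type chains, and Col9a1 went from 9.9, 9.25 and 7.82 CPM to no read at P14, at least 30.4-fold lower. Col2a1 had overlapping stages and was not called by edgeR (adjusted p = 0.083).

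Basement membrane genes rose in 11 of 23 cases and fell in 4 (median 0.60). Itga7, the laminin receptor of muscle, went from 0.145, 1.6 and 0.702 CPM to 88.7, 43.6 and 49.6 CPM (5.09 ± 0.43, adjusted p = 2.4e-08). Nid1 rose by 1.63 and its relative Nid2 fell by 1.04, from 321, 318 and 328 CPM to 148, 146 and 179 CPM. Col4a4 rose by 3.21 and Lamb2, a laminin chain of mature membranes, by 1.62. Markers of fibroblasts rose as well, and 4 of them are also on the matrix lists. Their summed level was 2153 to 3602 CPM at E14.5, 4566 to 10749 CPM at P4 and 8700 to 11123 CPM at P14, and 10 of 16 rose and none fell (median 2.17). Of the 12 that are on no matrix list, a split chosen after seeing the data, 6 rose and none fell (median 1.45), with sums of 1353 to 1736 CPM at E14.5 and 2890 to 3298 CPM at P14. Pi16, a marker of adventitial fibroblasts, had 0.0723, 0.0616 and 0 CPM at E14.5 and 71, 79.3 and 44.7 CPM at P14, and Ddr2, a collagen receptor, rose by 2.57. Smooth muscle and pericyte markers summed to 1374 to 1438 CPM and 3967 to 5010 CPM, with 7 of 12 rising and 1 falling (median 1.65). Among these were Mylk, smooth muscle myosin kinase (3.31), Pdgfrb (1.83) and Tagln (3.23), while Cnn1, calponin, fell by 2.33. No defining marker of smooth muscle was at 0 in all libraries of a stage, and among fibroblast markers Vit had no read at E14.5. The part of these cells in the rise of the matrix genes was not tested.

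Bone morphogenetic protein and TGF-beta genes rose in 7 of 28 cases and fell in 3 (median 0.63; 11 rose with DESeq2). Ligand genes moved in both directions. Bmp7 fell from 330, 300 and 254 CPM to 7.94, 2.67 and 2.4 CPM and Bmp5 by 2.18. Bmp6 went from 2.82, 4.99 and 10.5 CPM to 44.4, 23.2 and 40.7 CPM (2.48 ± 0.48, adjusted p = 5.6e-04). Tgfb3 rose by 2.12, the matrix target Tgfbi by 2.23 and the receptor gene Bmpr1a by 0.65. In Wnt and Notch signalling 5 of 29 genes rose and 5 fell (median 0.26), beside 9.74% and 14.5% of all genes. Heyl and Notch3, genes of vascular Notch signalling, rose by 2.39 and 1.68, and Lef1, a nuclear effector of Wnt, fell from 19.3, 7.58 and 25.2 CPM to 1.31, 3.2 and 0.56 CPM (−2.75 ± 0.57, adjusted p = 0.0012). Frzb, a secreted Wnt inhibitor, rose by 2.37. Counts of falling genes were 1 without E14.5 library 2 or with edgeR, 2 without P14 library 1 and 3 without E14.5 library 1 or P14 library 3 or under equal upper quartiles or sarcomere levels. Without E14.5 library 1 or P14 library 3, 3 rose.

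Macrophage markers rose in 11 of 18 cases and none fell (median 2.24), and their sum went from 117 to 206 CPM at E14.5 through 250 to 396 CPM at P4 to 637 to 849 CPM at P14. Lyz2, lysozyme, stood at 10.6, 4.81 and 5.92 CPM and then at 244, 139 and 310 CPM (4.83 ± 0.39, adjusted p = 1.2e-08). Cd163, a scavenger receptor of resident macrophages, went from 1.23, 0.863 and 0 CPM to 22.3, 20.3 and 36.7 CPM, and Csf1r, the receptor that macrophages need to live, rose by 2.37. Antigen presentation and interferon genes rose in 7 of 22 cases and none fell (median 0.90; 11 rose under equal sarcomere levels). Ifitm3, an interferon-induced membrane protein, went from 9.8 to 14.9 CPM to 140, 151 and 119 CPM (3.31 ± 0.31, adjusted p = 1.1e-07), and Oasl2 rose by 3.41. The part of macrophage RNA in the interferon genes was not tested. Lymphocyte markers summed to at most 1.85 CPM at E14.5 and 3.12 CPM at P14, and Ms4a1 and Rag1 had no read at either stage.

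Fewer calls fell on the remaining cell types. Working atrial markers summed to 8834 to 9585 CPM and then 7068 to 7925 CPM, with 2 of 13 falling and none rising, and ventricular markers to 2381 to 4016 CPM and 1815 to 2429 CPM, with none of 5 called. E14.5 library 1 held 829 CPM of Myl2, the ventricular myosin light chain, against 1.6 CPM in library 2, and Myl2 was called as falling with edgeR (−5.64, adjusted p = 0.021), with DESeq2 (−5.60, adjusted p = 0.0043) and without that library 2 (−4.23, adjusted p = 0.029). Nppa, the atrial hormone, had overlapping stages, at 10.4, 1.6 and 34.4 CPM and at 3.27, 4.53 and 1.84 CPM. Its change of −1.32 was called only without E14.5 library 2 (−2.31, adjusted p = 0.0015) and with edgeR (adjusted p = 0.039). Without that library or with edgeR 4 atrial markers fell, without E14.5 library 1 it was 1, and without E14.5 library 3 or P14 library 1 or 3 it was 0. As rises, 1 was called under equal upper quartiles or sarcomere levels, with edgeR or DESeq2, in the fit of 6 libraries and without P14 library 1, and 2 were called without E14.5 library 3. Epicardial markers were uneven between E14.5 libraries, where Lrrn4 was at 0.0723, 6.1 and 49.2 CPM and Msln at 0, 8.08 and 25.2 CPM. Their sum was 318 to 579 CPM and then 412 to 548 CPM, with 4 of 12 rising and 1 falling (median 1.17), and 1 rose without E14.5 library 1. Without that library Lrrn4 (1.59, adjusted p = 0.26), Msln (1.56, adjusted p = 0.24) and Upk1b (1.49, adjusted p = 0.16) were not called, nor without P14 library 2 or 3 (adjusted p = 0.053 to 0.094), and Lrrn4 and Msln also lost their calls without P14 library 1 (0.068 and 0.052) and Lrrn4 without E14.5 library 2 (0.082). With P14 library 1 left out 2 rose, and 1 rose without P14 library 2 or 3, with edgeR or with DESeq2. Erythroid markers summed to 20.5 to 57.6 CPM and 12.6 to 47.5 CPM with no call. Fabp4 and Cidea of adipocytes rose by 1.75 and 2.17, and Fabp4 was not called without E14.5 library 1 (adjusted p = 0.062). Mast cell markers had no call (2 rose in the fit of 6 libraries), and they were high in single P4 libraries, with Cpa3 at 251, 78.3 and 0 CPM. The plot of marker sums shows that all P14 libraries lay above all E14.5 libraries for macrophages, fibroblasts, smooth muscle, endothelium and glia, and below them for autonomic neurons and working atrial muscle.

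**Figure D3:**
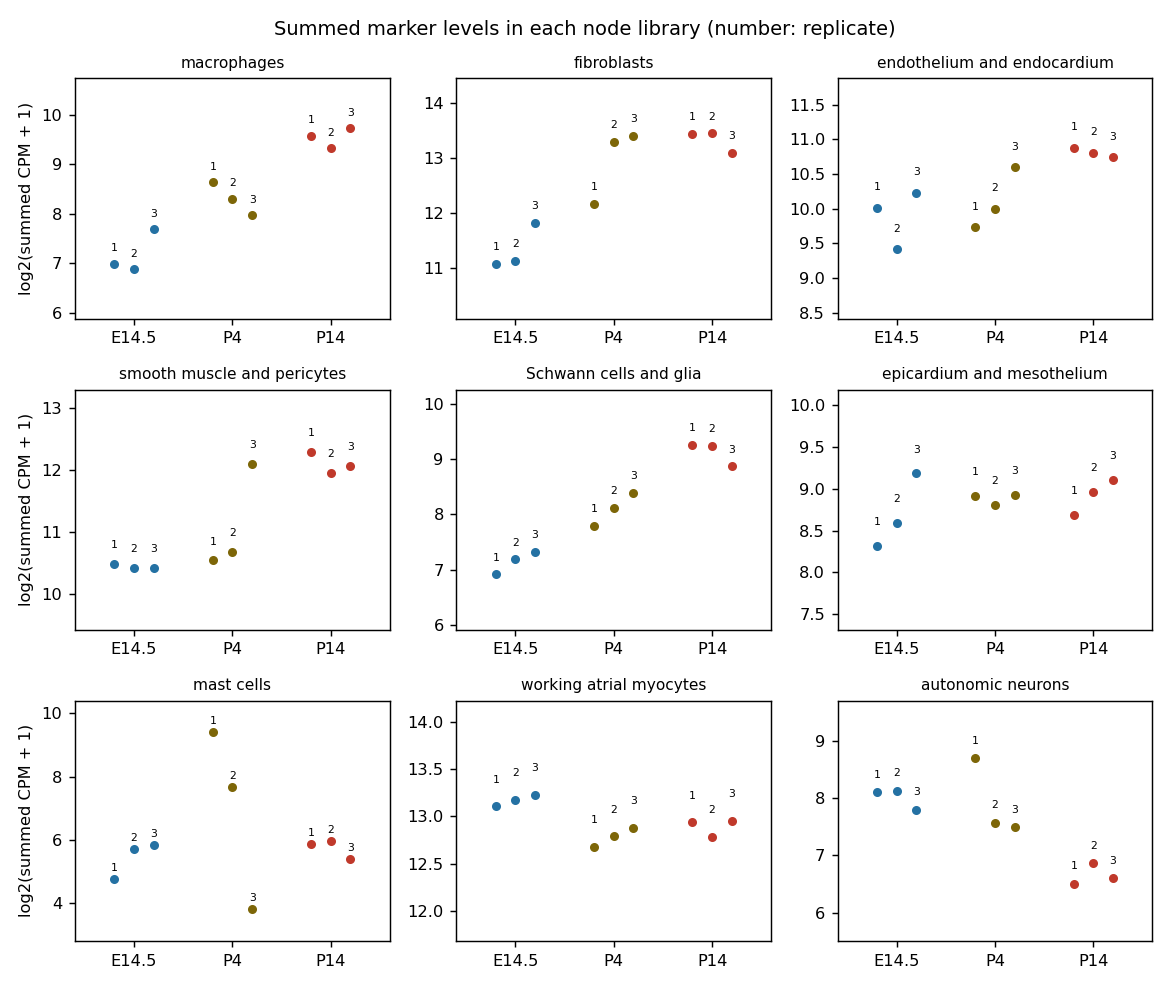
Summed level of the markers of 9 cell types, as log2(summed CPM + 1) on the vertical axes, in each node library (points, numbered by replicate) at E14.5, P4 and P14. Fibroblast sums reach 8700 to 11123 CPM at P14 from 2153 to 3602 CPM at E14.5, and autonomic neuron sums lie at 90.1 to 115 CPM at P14 below 221 to 278 CPM at E14.5.

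The P4 libraries divided the span into an early and a late step. From E14.5 to P4, 1448 genes (8.24%) were called, 676 rising (3.85%) and 772 falling (4.39%). From P4 to P14, 982 genes (5.59%) were called, 471 rising (2.68%) and 511 falling (2.91%). Leaving out 1 library moved these counts. The early step had 393 rising and 398 falling genes without E14.5 library 1, 419 and 412 without E14.5 library 2 and 425 and 417 without P4 library 2, and falls were 480 without E14.5 library 3 and 459 without P4 library 1. The late step had 273 rises and 281 falls without P4 library 2 and 282 and 265 without P14 library 1. Rises were 46.7% of the calls in the early step, 66.2% with edgeR and 62.5% with DESeq2, and 48.0% in the late step, 62.1% under equal sarcomere levels. Of the genes called over the whole span the P4 mean lay between the ends for 1431 of 1712 rises and 2300 of 2551 falls, and the median share of the change reached by P4 was 53.8% and 53.0%. These genes were chosen for differing between the ends, which makes a P4 mean between them likely, and other genes were not counted. The P4 libraries also differed most among themselves (chi-squared over its degrees of freedom of 54.51 to 92.0). Changes mostly made by P4 included those of Cacna1g (3.83 by P4 and −0.54 after), Klf9 (3.44 and 0.87), Npas2 (3.11 and −0.12) and Itga7 (4.47 and 0.62). On the log2(CPM + 1) scale, changes mostly made after P4 included those of Kcna1 (1.62 and 5.08), Scn4b (0.00 and 2.95), Mb (0.89 and 4.44), Hmcn2 (−0.34 and 6.14) and Pi16 (0.81 and 5.13). For Kcna1 the order of the steps depended on the scale. EdgeR put the steps of Kcna1 at 7.74 and 5.43 (DESeq2 at 7.66 and 5.46), values that rest on its absence of reads at E14.5, and those of Pi16 at 4.05 and 6.15 (DESeq2 at 4.39 and 6.19). Their early steps were called with edgeR (adjusted p = 0.0029 and 0.042) and DESeq2 (1.7e-05 and 0.0067) though not with limma, that of Kcna1 also without P4 library 2 (0.027), and that of Mb without E14.5 library 1 (0.022). Tnni1 fell by 1.48 and then by 4.77, whereas Igf2bp1 fell by 3.85 and was then at −1.42 without a call, though without P4 library 1 (adjusted p = 0.028) or P14 library 3 (0.046) and with DESeq2 (0.0043) it was called. Cntn2 rose by 4.91 and by 3.19, with both steps called.

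**Figure D4:**
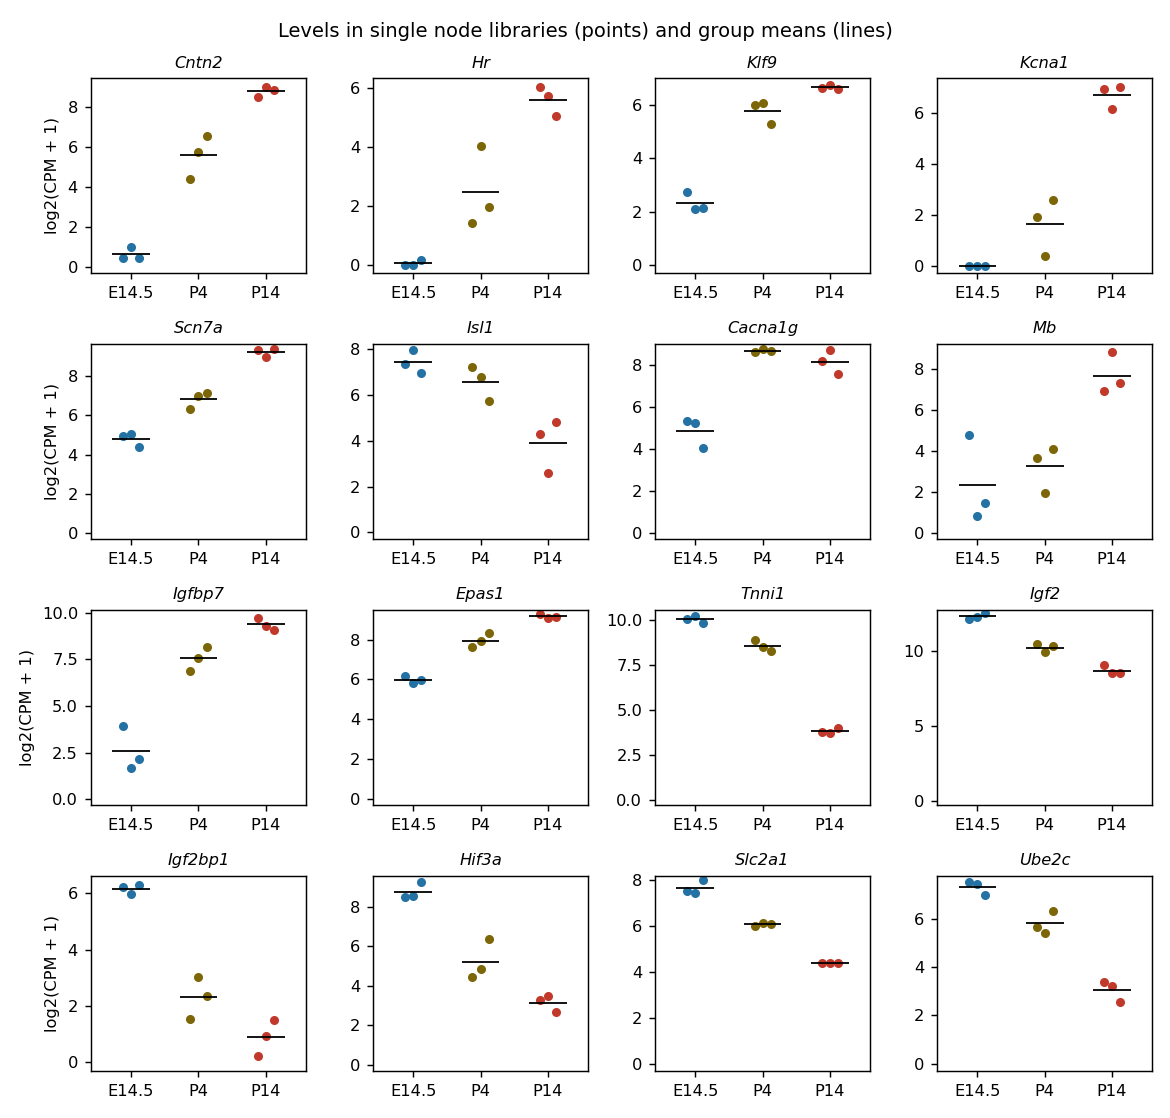
Level of 16 named genes in the node, log2(CPM + 1), at E14.5, P4 and P14; points are libraries and horizontal lines are stage means. Cacna1g reaches its P14 level at P4, while on this scale Kcna1, Mb and Tnni1 change mostly between P4 and P14.

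Some genes were highest or lowest at P4, with both steps called and opposite in sign, 13 of the former and 23 of the latter. Counted were genes with a mean of at least 5 CPM at their highest stage, without the gene classes left out of the rankings. Macrod2, an ADP-ribose hydrolase, was at 22.6, 15.5 and 7.42 CPM at E14.5, at 139, 135 and 46.4 CPM at P4 and at 10.6, 27.1 and 17.7 CPM at P14, so E14.5 and P14 overlapped. Gsg1l, Egf and Rfxank had the same shape, with steps of 2.95 and −2.09, 1.79 and −1.85, and 1.80 and −1.33. Ankrd1, a stretch-responsive protein of the sarcomere, was at 307, 227 and 377 CPM, at 14.4, 84.7 and 254 CPM and at 444, 327 and 298 CPM. Ryr3 (−3.11 and 3.47), Angpt1 (−2.52 and 2.26), Cnksr2 (−2.32 and 2.23) and Gja1 (−1.94 and 2.74) were also lowest at P4. In each of these genes the E14.5 and P14 libraries overlapped. Macrod2 and Angpt1 kept both calls whichever library was left out. The late step of Gsg1l, Egf, Rfxank and Cnksr2 and the early step of Egf, Ankrd1 and Ryr3 were not called without P4 library 1 (adjusted p = 0.055 to 0.13), and all 6 genes lost a call without another library too. Both steps of Ryr3 were lost with edgeR (adjusted p = 0.07 and 0.052) and DESeq2 (0.11 and 0.056), the early step of Ankrd1 with both (0.13 and 0.16) and its late step with edgeR (0.064), and the late steps of Gsg1l (0.13), Cnksr2 (0.056) and Egf (0.075) with edgeR. When only the 2 groups of a step were fitted, each of these genes except Macrod2 and Gja1 lost at least 1 call (0.063 to 0.12). The fit with a replicate block ended the late call of Egf (adjusted p = 0.05).

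Whether the node matured differently from the atrium was asked with the difference of the changes, node minus RA. Both tissues were captured at the same stages. The difference was called for 399 genes (2.27%), positive for 288 (1.64%) and negative for 111 (0.632%), so most of the 4263 genes called in the node had no called difference from atrium, which does not show that they changed alike. Positive differences were 72.2% of the calls, 56.2% under equal upper quartiles, 91.3% under equal sarcomere levels, 51.5% with edgeR and 57.2% with DESeq2. Without 1 library the count of positive differences was 117 (RA E14.5 library 2), 128 (node E14.5 library 1), 142 (RA E14.5 library 1), 154 (node E14.5 library 2), 155 (RA P14 library 2), 179 (RA P14 library 1) and 184 (node P14 library 2). That of negative differences was 62 (node E14.5 library 1), 64 (RA E14.5 library 1), 67 (node E14.5 library 2), 68 (RA P14 library 3) and 69 (RA P14 library 2). The changes of atrium are values of the same fit, and the test is of the difference alone.

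Of the 14 node factors and markers 7 had a called difference, 6 negative and 1 positive (median −1.02). Over all genes 0.632% were negative and 1.64% positive. The list was made of node genes, and a gene near 0 in RA at E14.5, such as Cckar, has little room to fall there. The calls of Isl1, Shox2 and Tbx3 among them depended on single libraries. Isl1 changed by −3.52 in the node and 0.12 in RA, a difference of −3.64 ± 0.82 (adjusted p = 0.021). It was not called with edgeR (adjusted p = 0.36) or DESeq2 (0.17), nor without RA E14.5 library 1 or 2, RA P14 library 1, node E14.5 library 1 or 2 or node P14 library 2 (0.051 to 0.069). Shox2 differed by −2.49 (adjusted p = 0.048), and its call was lost without any 1 library except RA P14 library 3 (0.057 to 0.14), with the replicate block (0.057), under equal sarcomere levels (0.078) and with edgeR and DESeq2 (0.071 in both). Tbx3, at 0.59 in the node and 2.75 in RA, differed by −2.16 (adjusted p = 0.02) and was not called without RA E14.5 library 2, RA P14 library 2 or node E14.5 library 1 or 2 (0.053 to 0.063). Tbx18 (−1.35 and −1.97) showed no called difference. Cckar stood at 307 ± 37.4 CPM (SD, n = 3 libraries) in the E14.5 node and 0.94 CPM in RA, and its difference was −5.88 ± 0.80 (adjusted p = 3.3e-04; 0.099 with edgeR).

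Positive differences were led by Hmcn2, a hemicentin of the matrix, which went from 0.837 ± 0.91 to 99.1 ± 39.6 CPM in the node and from 1.77 ± 0.46 to 0 CPM in RA (7.26 ± 0.67, adjusted p = 5.4e-06). Cntn2 rose in both tissues and by 4.58 ± 0.98 more in the node (adjusted p = 0.015; 0.24 with edgeR and 0.098 with DESeq2), and Epas1 by 1.67 ± 0.30 more (adjusted p = 0.0041). Scn4b (2.74, adjusted p = 0.0051; 0.099 with edgeR) and Ntn1 (3.06, adjusted p = 4.6e-04) were also higher by difference. Lrp2, an endocytic receptor, differed by 6.30, Fam163a by 6.41, Atp2a3, the calcium pump SERCA3, by 5.80 and Lrrn4 by 6.58. The last is a mesothelial gene with overlapping node stages, and edgeR (adjusted p = 0.22) and DESeq2 (adjusted p = 0.32) did not call it. Cdkn1c fell in both tissues and by less in the node (2.42, adjusted p = 0.0097).

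Of 13 working atrial markers 4 had a called difference and all 4 were negative, against 0.632% of all genes, while 8 of the 13 rose in RA. Among the named genes with a negative difference, Fndc5, the precursor of irisin, went from 22.5 to 62.7 CPM in the node and from 4.44 to 536 ± 71.4 CPM in RA (−5.25 ± 0.54, adjusted p = 2.0e-05). Nppb, B-type natriuretic peptide, went from 7.5 to 0.249 CPM in the node, where its stages overlapped, and from 32.5 to 258 CPM in RA (−5.14 ± 0.96, adjusted p = 0.0056). Tnnc1 fell by 1.75 in the node and stood at 0.23 in RA, a difference of −1.99 ± 0.30 (adjusted p = 8.5e-04). Tnni1 fell in both tissues and by 1.73 more in the node. Igf2 (−1.70, adjusted p = 0.006) and H19 (−2.45, adjusted p = 0.0011) fell further in the node, as did Fgf13 (−2.61, adjusted p = 0.0019) and Adcy1 (−3.31, adjusted p = 0.0023). Dpt, dermatopontin of fibroblasts, rose in both and by 4.77 less in the node, from an E14.5 level of 40.5 CPM against 0.645 CPM in RA. Cdh4, a cadherin, differed by −4.37 ± 1.00 (adjusted p = 0.023), without a call in edgeR (adjusted p = 0.11) or DESeq2 (0.091) or without RA E14.5 library 1 or 3, RA P14 library 3 or node E14.5 library 1 (0.051 to 0.067). Cacna1g (0.41), Klf9 (0.20), Slc2a1 (0.05), Mki67 (−0.09) and Igfbp7 (0.23) showed no called difference, each with a change of the same sign and at least 2 log2 units in both tissues.

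**Figure D5:**
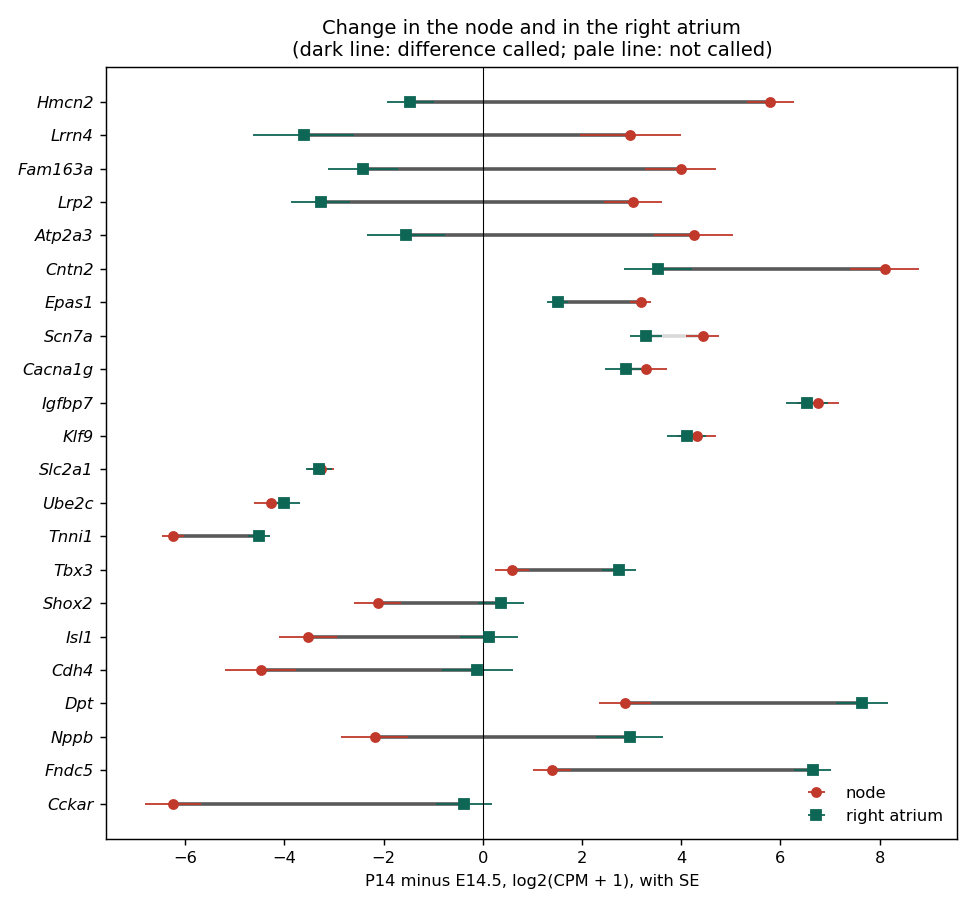
Change from E14.5 to P14 (log2 units of CPM + 1, horizontal axis) in the node and in the right atrium for 22 genes, with bars of 1 SE; a dark line joins the pair where the difference of the changes was called. Isl1, Cckar, Hmcn2 and Fndc5 have pairs far apart, while those of Klf9 and Slc2a1 nearly coincide.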

How the data were processed

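RNA from laser-captured mouse heart tissue was amplified and sequenced without strand information, per the labels' protocols. The submitters' processing notes name TopHat2 2.0.6, edgeR and the mouse build mm8. The deposited values are a signal, read counts that the authors scaled by the TMM method, per the labels. Division by each library's smallest step gave whole reads within 0.1 read, 8179985 to 17997497 per node library at the ends of the span.

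Values divided by 24.3 are the CPM printed here. Limma 3.58.1 (R 4.3.3), with a mean-variance trend, was fitted to log2(CPM + 1) of 18 libraries in 6 group means, for the 17568 genes with at least 1 CPM in 3 libraries, and contrasts gave each comparison. Fitting scripts were tested on simulated data. As alternatives, edgeR 4.0.16 and DESeq2 1.42.0 were run on the recovered reads, and the pseudocount, filter, scaling and libraries were varied. A fold against a group with no read was set against 3 reads per library.

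Named were 6 node genes, the 12 largest changes each way, up to 5 members of each list by p, the 5 largest differences from atrium each way and up to 4 genes highest and 4 lowest at P4. The rankings took called genes with at least 5 CPM in the higher group, and for the 12 largest changes also stages without overlap. Left out of them were unnamed gene models and hemoglobin, histocompatibility, immunoglobulin, ribosomal protein, mitochondrial, small RNA and histone cluster genes. Some further genes were chosen after their values were seen. A few genes are not reported here by name, although they stay in the fits and list counts. The members and lists were chosen with earlier results of these data known. Symbols matched RefSeq for 16850 genes (80.7%).

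The titles carry replicate numbers. Over genes, deviations of equally numbered libraries correlated at −0.04 to 0.01, and the numbers were not taken as pairs.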

Additional observations from a re-analysis of the deposited data

Results flagged for a closer look

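Of 247 named genes, 37 changed differently in the node and in the right atrium between E14.5 and P14, by limma's test of the difference itself (adjusted p under 0.05 over all genes tested), against 399 of 17568 genes (2.27%) in all. Of the named genes 10 were chosen for the size of this difference, so part of the 37 follows from the naming rule. The difference was positive for 20 and negative for 17. Values below are the node's log2 change minus that of the atrium.

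Among node and conduction genes the differences were −3.64 for Isl1, −2.49 for Shox2, −2.16 for Tbx3, −5.88 for Cckar, −3.31 for Adcy1, −2.61 for Fgf13, 2.74 for Scn4b and 5.80 for Atp2a3. Muscle genes with negative values were Tnnc1 (−1.99), Tnni1 (−1.73), Myh7, the beta myosin (−1.60), Nppb (−5.14) and Fndc5 (−5.25).

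Growth genes were split, with −1.70 for Igf2 and −2.45 for H19 against 2.42 for Cdkn1c. Nerve and adhesion genes stood at 4.58 (Cntn2), 3.06 (Ntn1), −1.72 (Unc5b) and −4.37 (Cdh4). Matrix and fibroblast genes stood at 7.26 (Hmcn2), 2.56 (Tgfbi), 1.89 (Nid1) and −4.77 (Dpt). For vessels, smooth muscle and fat the values were 1.67 (Epas1), 1.52 (Flt1), 4.43 (Mylk) and −3.38 (Fabp4). Macrophage and interferon genes stood at 2.95 (Lyz2), 3.84 (Oasl2) and 1.96 (Ifitm3). Mesothelial genes stood at 6.58 (Lrrn4), 5.01 (Upk1b) and 2.81 (Gpm6a). The rest were Lrp2 (6.30), Fam163a (6.41), Atp2a3 (5.80) and Errfi1 (2.44).

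Of the 37 calls, 29 held whichever single library was left out where the gene was still tested, and 24 of these held with edgeR and DESeq2 as well. The 8 that did not hold were Isl1, Shox2, Tbx3, Cdh4, Errfi1, Flt1, Gpm6a and Ifitm3. Errfi1 was lost without node E14.5 library 1 or node P14 library 2, RA E14.5 library 1 or RA P14 library 1 or 3 (adjusted p = 0.051 to 0.063). Ifitm3 was lost without node E14.5 library 2, RA E14.5 library 1 or 2 or RA P14 library 2 (0.052 to 0.062). Flt1 was lost without node E14.5 library 1 or 2, node P14 library 2, RA E14.5 library 1 or 2 or RA P14 library 2 or 3 (0.076 to 0.11). Gpm6a kept its call only without node E14.5 library 3, node P14 library 1 or RA P14 library 3. Upk1b was not called by edgeR (adjusted p = 0.2) or DESeq2 (adjusted p = 0.19).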

How the results depend on the processing

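Over the whole span the counts of 1712 rises and 2551 falls became 1260 to 1514 and 1908 to 2255 when 1 library was left out.

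Rises from E14.5 to P4 (676) numbered 434 when only the 2 groups were fitted, 1229 with DESeq2 and 393 to 682 without 1 library, and falls (772) 417 with edgeR and 398 to 999 without 1 library. Rises from P4 to P14 (471) numbered 196 in the fit of 2 groups, 758 with DESeq2 and 273 to 637 without 1 library. Falls of that step (511) numbered 338 under equal sarcomere levels, 115 in the fit of 2 groups, 310 with edgeR and 265 to 510 without 1 library. Positive differences from atrium (288) numbered 925 under equal sarcomere levels, 564 when only the 4 groups were fitted, 117 with edgeR and 117 to 357 without 1 library. Negative ones (111) numbered 177 under equal upper quartiles, 195 in the fit of 4 groups, 289 with DESeq2 and 62 to 94 without 1 library. For the changes of scaling and tool the cause was not tested, while fits of fewer libraries have fewer degrees of freedom and test another set of genes by construction.

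With the replicate number as a block the counts were 1704 rises and 2496 falls over the whole span, 644 and 685 to P4, 462 and 475 after it, and 270 and 104 for the difference. In the pairing check, equally numbered libraries correlated at −0.04 to 0.01 in their deviations, and 0 of 3 correlated best with their own number. The block ended the calls named in the text for Tbx2 (adjusted p = 0.054), the late step of Egf (0.05) and the difference of Shox2 (0.057).

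Of the 247 genes chosen by the naming rule, 243 to 246 kept their direction and their side of the threshold for the whole span under other pseudocounts, no filter or other scalings, 229 with edgeR, 235 with DESeq2 and 234 to 239 without 1 library, and no direction of a called change reversed. A count of 0 reads allows up to 3 reads, so levels under about 0.4 CPM in the shallowest node library were not resolved.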

Other observations

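Membrane transporters not described above changed in both directions. Of 23 tested genes for solute and water transport 5 rose and 4 fell (median 0.45; 8 rose with edgeR and 9 with DESeq2), and the summed level of the list was 3439 to 3607 CPM at E14.5 and 2898 to 3948 CPM at P14. Aqp7, a channel for water and glycerol that is known from fat, stood at 0.0723, 0.123 and 0.502 CPM at E14.5, at 9.17, 10.5 and 0.609 CPM at P4 and at 25, 25.1 and 9.28 CPM at P14 (3.97 ± 0.60, adjusted p = 4.6e-05 with limma). Slc1a5, a glutamine transporter, rose from 6.07, 2.53 and 3.61 CPM to 22, 45.7 and 21 CPM (2.56 ± 0.60). The amino acid transporter genes Slc38a1 and Slc38a4 fell by 2.55 and 1.65, and Slc38a4 stood at 210, 269 and 376 CPM and then at 63.8, 118 and 89.5 CPM. The stages did not overlap in any of these 4 genes. The 2 tested adipocyte markers rose (1 without E14.5 library 1), their sum being 24.3 to 51.6 CPM at E14.5 and 102 to 142 CPM at P14, and their part in the rise of Aqp7 was not tested.

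Cartilage genes were detected in the captured node. Of 4 tested genes 1 rose and 2 fell (median −1.20), and their sum was 46.8 to 59.1 CPM at E14.5, 52.6 to 148 CPM at P4 and 41.1 to 58.7 CPM at P14. Acan, the cartilage proteoglycan aggrecan, had no read in any E14.5 library, 0, 21.6 and 54.9 CPM at P4 and 13.4, 1.2 and 21 CPM at P14, at least 50.7-fold higher than E14.5 set against 3 reads per library. Its limma call (adjusted p = 0.025) was lost without any single library except P14 library 2 (adjusted p = 0.058 to 0.12). No airway gene passed the filter. Of 4 lymphocyte, 6 mast cell and 8 erythroid markers tested, 0 were called by limma in the fit of 18 libraries, while 1 lymphocyte marker rose with edgeR or DESeq2 and 2 mast cell markers, Cma1 (2.57) and Cpa3 (2.19), rose in the limma fit of the 6 node libraries.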
